A study of Homo sapiens with 12 samples.

Results

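The genes described here are 9 transcription regulators known from the passage of endothelium to blood and from blood stem cells: GFI1, GFI1B, HHEX, MEIS1, MYB, IKZF1, MECOM, BCL11A and HLF. They were taken by symbol from a table of FPKM values, which count fragments relative to transcript length and to the mapped fragments of a library, with 58365 gene lines and 12 RNA-seq libraries. The 9 symbols stood on 10 lines, because GFI1B was listed on a pair of lines, and 8 of the 9 reached the level needed for testing, 1 FPKM in at least 3 libraries, as did 14840 genes in all. HLF did not. The libraries came from 4 stages of hematopoietic differentiation of the human embryonic stem cell line H1, with 3 libraries each: undifferentiated H1 hESCs, APLNR+ mesoderm cells at day 2, CD31+CD34+ hemogenic endothelial progenitors (HEPs) at day 5, and CD43+ hematopoietic progenitor cells (HPCs) at day 8. In a modified mTeSR1 medium, the differentiating cells were given activin A and BMP4 until day 2, the day of the APLNR+ cells, and then VEGF and bFGF, which the HEPs and HPCs of days 5 and 8 had received. None of the groups carries a genetic change in the labels. The cells were of a single cell line, and nothing in the labels says that the 3 libraries of a stage came from separate cultures, so p values measure the spread between these libraries.

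In the embryo, blood stem and progenitor cells arise from a specialised endothelium whose cells give up their vessel identity and bud off as blood cells. GFI1 and GFI1B are zinc finger repressors of closely similar structure that switch off endothelial genes at that transition by bringing the histone demethylase KDM1A (LSD1) and its CoREST partners to DNA. HHEX is a homeobox repressor of early endothelium and blood. MYB, IKZF1 (Ikaros) and MEIS1 are needed for definitive blood progenitors, while MECOM (EVI1) and HLF are known for their part in keeping blood stem cells as stem cells. BCL11A is a zinc finger repressor best known for silencing fetal globin genes and for its need in lymphoid cells.

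The stretches of DNA just before annotated starts of 4 of these genes are shown first. Each holds letters that the RUNX or ETS factors of blood and endothelium bind, whereas most of the 21 windows of the 9 genes hold neither. The stretches are RefSeq sequences of build GRCh38.p14, 250 bases ending at the base before the start, printed 5' to 3' on the strand of the gene. Capitals mark the RUNX core TGTGGT, or ACCACA on the other strand, and the ETS core CAGGAAG, or CTTCCTG on the other strand. The GFI1 stretch, for the second annotated start, lies at chr1:92486100-92486349 on the minus strand, inside GFI1 and outside its annotated exons. That of IKZF1, also for the second start, lies at chr7:50308450-50308699 on the plus strand, and 20 of its bases are annotated as exon. That of HHEX lies at chr10:92689705-92689954 on the plus strand, with 4 exonic bases, and that of MEIS1 at chr2:66434875-66435124 on the plus strand, inside the annotated gene and outside its exons.
GFI1: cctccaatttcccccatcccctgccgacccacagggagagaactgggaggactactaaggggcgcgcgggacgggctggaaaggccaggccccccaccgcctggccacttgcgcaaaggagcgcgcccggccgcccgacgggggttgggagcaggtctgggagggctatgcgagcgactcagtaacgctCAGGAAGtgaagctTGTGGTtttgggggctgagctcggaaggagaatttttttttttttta
IKZF1: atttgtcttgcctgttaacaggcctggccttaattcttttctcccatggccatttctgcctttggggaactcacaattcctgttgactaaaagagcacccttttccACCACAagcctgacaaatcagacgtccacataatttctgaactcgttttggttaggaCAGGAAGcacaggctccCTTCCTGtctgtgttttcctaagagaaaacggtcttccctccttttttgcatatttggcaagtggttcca
HHEX: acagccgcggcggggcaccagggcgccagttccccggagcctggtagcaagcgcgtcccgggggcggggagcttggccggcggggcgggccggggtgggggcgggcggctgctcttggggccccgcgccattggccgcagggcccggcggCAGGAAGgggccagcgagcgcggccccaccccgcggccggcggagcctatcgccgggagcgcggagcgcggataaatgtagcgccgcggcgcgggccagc
MEIS1: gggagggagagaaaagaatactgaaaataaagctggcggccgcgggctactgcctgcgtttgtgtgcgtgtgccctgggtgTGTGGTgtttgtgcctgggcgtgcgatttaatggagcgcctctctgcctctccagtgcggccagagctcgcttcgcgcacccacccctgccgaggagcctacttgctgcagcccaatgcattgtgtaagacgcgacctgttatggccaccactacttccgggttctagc
The ETS letters of GFI1 began 61 bases before the start and its RUNX letters 47 bases before it. IKZF1 held RUNX letters 144 bases and ETS letters 87 and 70 bases before the start, HHEX held ETS letters at 100 bases, and MEIS1 held RUNX letters at 169 bases. Such letters also stood before starts that are not printed. The first start of BCL11A, the regulator that fell, had RUNX letters at 11 bases and ETS letters at 53 bases. The second start of MECOM had RUNX letters at 246 bases, and the first start of IKZF1 had ETS letters at 56 bases. Across all annotated starts, the 9 genes had 21 windows running from 250 bases before to 50 bases after a start, some of them sharing bases. The RUNX letters were in 5 of the 21 windows (23.8%), of 5 genes, against 13.1% of all 35116 RefSeq windows, and the ETS letters were in 5 windows (23.8%), of 4 genes, against 12.7%. The GATA letters AGATAA were in 2 of the 21 windows (9.52%) against 10.3%. The E-box CAGCTG was in 1 window (4.76%) against 17.9%, and the MEIS letters TGACAG were in 1 window (4.76%) against 15.8%, all counted on both strands. Neither GFI1B window held any of the 5 motifs. No test was run on these shares, and which start the cells used was not measured.

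The libraries differed in how much of the summed FPKM a few lines took. The 10 highest lines held 19.3% to 72.4% of the sum, and among CD31+CD34+ HEPs they held 70.7% in replicate 1 against 20.5% and 22.3% in the others. Replicate 1 of the HEPs and of the HPCs also gave the lowest value of GFI1B, MYB and MEIS1 in its group, so each count of called regulators was recomputed with replicates 2 and 3 of every stage alone, and no such count changed. The genes that marked the sorted cells were high where the labels put them: APLNR rose by 7.98 on the log2 scale in APLNR+ cells, PECAM1 (CD31) by 5.68 and CD34 by 4.61 in HEPs, and SPN (CD43) by 4.02 in HPCs. They were not limited to those stages. APLNR averaged 383 FPKM in APLNR+ cells and 403 in HEPs, and PECAM1 55.2 in HEPs and 95.9 in HPCs. CD34 was still at 22.2 FPKM in HPCs, and SPN had already risen by 1.98 into HEPs.

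**Figure D1:**
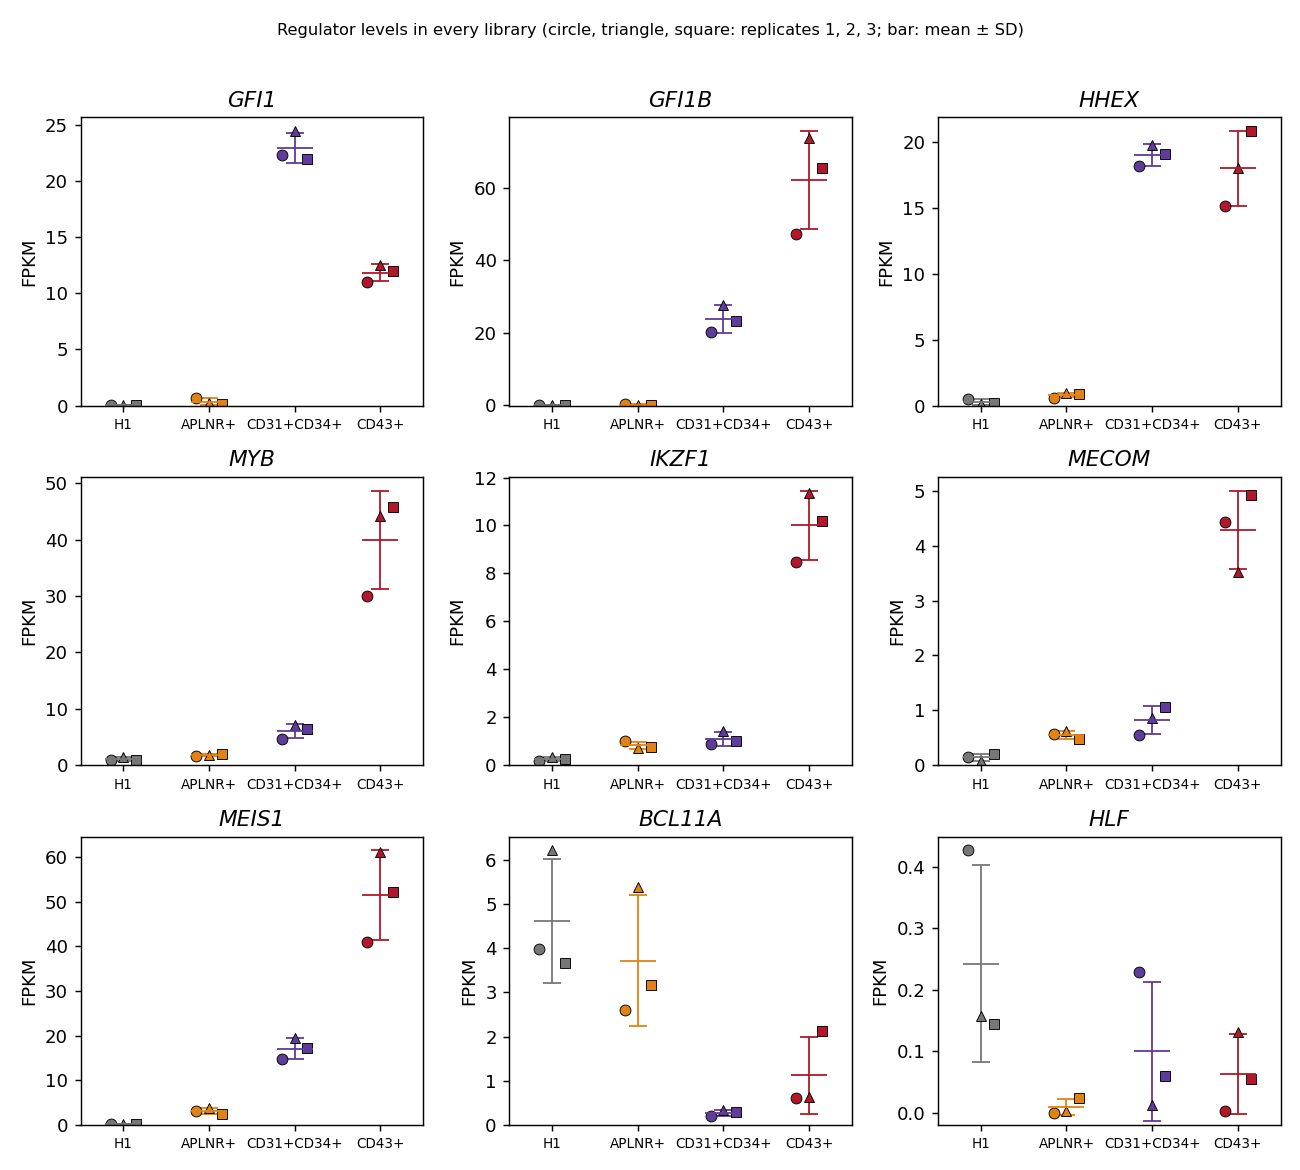
FPKM of each of the 9 regulators (y axis, a scale of its own in each panel) in the 4 stages (x axis). Points are the 3 libraries and bars the mean ± SD. GFI1, GFI1B and HHEX were near 0 before the HEP stage, MYB, IKZF1 and MECOM were highest in HPCs, MEIS1 climbed from stage to stage, BCL11A was lowest in HEPs and HLF stayed under 0.5 FPKM in every library.

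Across the 3 consecutive steps, and with the limits used here, GFI1, GFI1B, HHEX and MYB were first called as raised in HEPs, IKZF1 and MECOM in HPCs and MEIS1 in APLNR+ cells and at each later step, and BCL11A was called as lowered in HEPs. This order depends on the pseudocount: with 0.1 in place of 1, GFI1, HHEX, IKZF1 and MECOM were called in APLNR+ cells too. A gene was called where limma, fitted to log2(FPKM + 1) of all 12 libraries, gave a 2-fold or larger change with a Benjamini-Hochberg adjusted p under 0.05. From H1 hESCs to APLNR+ mesoderm cells, 1 of the 9 genes was raised, against 8.3% of all genes tested, and 0 were lowered, against 7.62%. At an unadjusted limma p under 0.05, 6 were higher, as were 24.4% of all genes tested, and 0 lower, beside 37.7%. From APLNR+ cells to HEPs, 5 were raised (GFI1, GFI1B, HHEX, MYB and MEIS1) against 12.5% of all genes, and 1 was lowered (BCL11A) against 17.1%. From HEPs to HPCs, 5 were raised (GFI1B, MYB, IKZF1, MECOM and MEIS1) against 5.58%, and 0 were lowered against 8.79%, with 6 higher and 1 lower at an unadjusted limma p under 0.05, beside 28.7% and 30.4% of all genes. The median change of the 8 tested genes was 0.44, 1.72 and 1.43 on the log2 scale at the 3 steps, beside -0.12, -0.01 and -0.0049 over all genes tested. Scaling by median-ratio size factors moved the median of all genes at the second step from -0.01 to -0.24 and changed no count of regulators, so list medians near 0 at that step turn with the scaling. A bulk level cannot tell fewer cells that express a gene from less RNA of it in each cell.

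**Figure D2:**
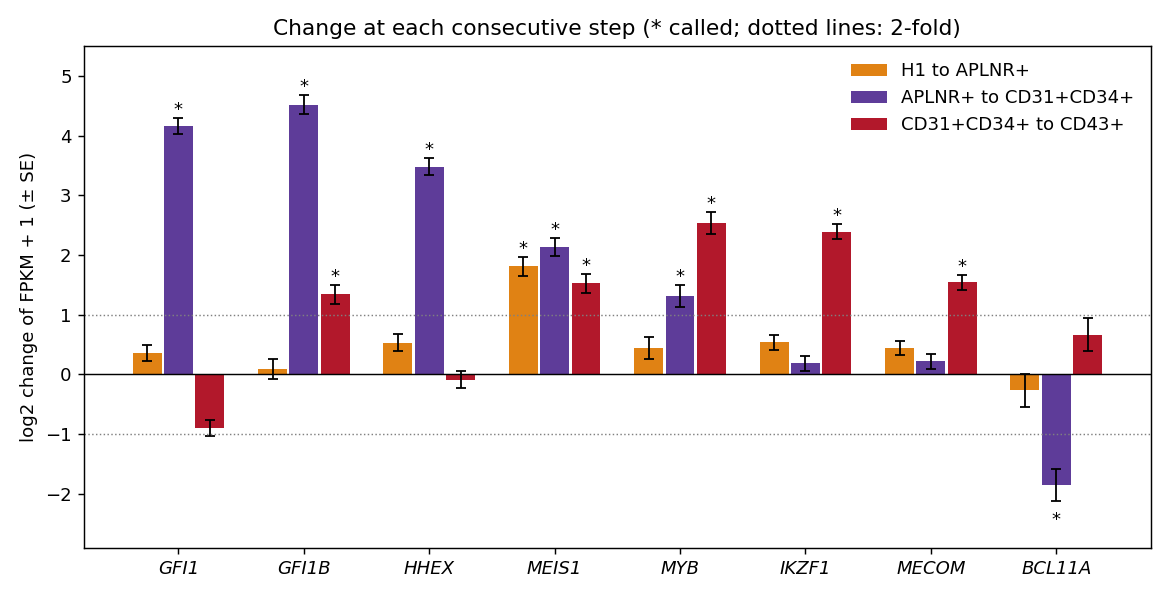
Fitted change of log2(FPKM + 1) (y axis, with its standard error) for the 8 tested regulators (x axis) at each consecutive step. Asterisks mark called changes and dotted lines a 2-fold change. GFI1, GFI1B and HHEX changed most from APLNR+ cells to HEPs, IKZF1 and MECOM were called from HEPs to HPCs alone among the 3 steps with the pseudocount of 1 used here, and MEIS1 was called at each.

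GFI1, the repressor that acts in emerging blood cells and later in granulocytes and lymphocytes, appeared in HEPs and stood lower in HPCs. Its FPKM was 0.0200, 0.0688 and 0.0193 in H1 hESCs, 0.671, 0.268 and 0.112 in APLNR+ cells, 22.3, 24.4 and 21.9 in HEPs, and 11.01, 12.5 and 12.01 in HPCs. Every HEP library was thus above every HPC library, and both stages were far above the earlier ones without overlap. The first step, 0.36 ± 0.13 (limma adjusted p = 0.0340), was under the 2-fold limit, but it was 1.55 and called with a pseudocount of 0.1. The rise into HEPs was 4.16 ± 0.13 (SE) on the log2 scale, with a limma adjusted p of 1.42e-10. From HEPs to HPCs the mean went from 22.9 ± 1.34 to 11.8 ± 0.752 FPKM (SD, n = 3), 0.517 of the HEP level, and the change of -0.90 ± 0.13 had a limma adjusted p of 0.000121 but missed the 2-fold limit. The exact permutation test of 3 against 3 libraries gave p = 0.1, the smallest it can give, for this and every other pair of groups without overlap. Groups did not overlap for 66% of all genes tested at the first step, 75.7% at the second and 58% at the last.

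GFI1B, the paralog that later acts in red cells and megakaryocytes, started at the same stage and kept rising. It was listed at 0.0255, 0 and 0 FPKM in H1 hESCs and at 0.234, 0 and 0 in APLNR+ cells, then at 20.2, 27.7 and 23.3 in HEPs and 47.3, 73.7 and 65.4 in HPCs. No library of a later stage overlapped one of an earlier stage from APLNR+ cells on, while the first pair of stages overlapped, with a change of 0.09 and a 95% interval of -0.27 to 0.44. The rise was 4.52 ± 0.16 into HEPs (limma adjusted p = 4.03e-10) and a further 1.34 ± 0.16 into HPCs (limma adjusted p = 2.47e-05). The second line listed as GFI1B held at most 0.0464 FPKM in any library and was not used. GENCODE 29 places TSC1 over part of GFI1B on the opposite strand, and TSC1 stood at 8.04 to 10.8 FPKM on average in all 4 stages, including those where GFI1B was at or near 0. Whether the counting used strand is not given in the sources used here.

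The balance of the pair thus shifted between HEPs and HPCs. The ratio of GFI1B to GFI1 FPKM within a library, which any scaling of the whole library leaves as it is, was 0.904, 1.14 and 1.06 in HEPs and 4.30, 5.90 and 5.45 in HPCs. Both paralogs were at about the same level per transcript length in HEPs, and GFI1B stood 4.30-fold or more above GFI1 in every HPC library. This ratio was chosen after the values had been seen and is given without a test.

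Of the 12 genes listed for the complex through which GFI1 and GFI1B repress, all were tested. At the first step 0 were raised and 0 lowered, beside 8.3% and 7.62% of all genes tested. At the second 1 was raised and 2 were lowered, beside 12.5% and 17.1%. At the last 0 were raised and 1 was lowered, beside 5.58% and 8.79%. Counts from so short a list cannot be told from these shares. At an unadjusted limma p under 0.05, 4, 3 and 2 were higher and 4, 5 and 2 lower, with medians of -0.13, 0.07 and 0.12 on the log2 scale. The demethylase KDM1A itself was abundant throughout, at 128 ± 6.56, 96.5 ± 11.0, 70.3 ± 7.75 and 78.4 ± 7.40 FPKM (SD, n = 3) from H1 hESCs to HPCs, and was called at no consecutive step. The genes called at the second step were HMG20B, a subunit of the LSD1-CoREST complex, which rose from 14.8 to 33.4 FPKM (log2 change 1.12 ± 0.17), the zinc finger protein gene ZMYM2, which fell from 39.2 to 9.09 (-1.99 ± 0.17), and the deacetylase gene HDAC2, which fell from 64.8 to 17.7 (-1.81 ± 0.09). At the last step RCOR2, a CoREST protein of stem cells, fell from 15.3 to 6.24 FPKM (-1.17 ± 0.13). The deacetylase HDAC1 stayed between 35.5 and 56.7 FPKM in all 12 libraries. GFI1 and GFI1B thus rose from near 0 while KDM1A stood at 61.4 FPKM or more in each library.

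HHEX rose at the same step as GFI1 and GFI1B and was not called after it. Its FPKM was 0.490, 0.0874 and 0.174 in H1 hESCs, 0.584, 0.919 and 0.888 in APLNR+ cells, 18.1, 19.8 and 19.1 in HEPs and 15.1, 18.0 and 20.8 in HPCs. The HEP and HPC libraries overlapped, and all of them were above the 6 earlier ones. The rise into HEPs was 3.48 ± 0.14 (limma adjusted p = 1.20e-09). Between HEPs and HPCs the change was -0.09 with a 95% interval of -0.40 to 0.23 and a limma adjusted p of 0.640, so neither a small fall nor a small rise could be told from none. From H1 hESCs to APLNR+ cells it was 0.53 ± 0.14 (limma adjusted p = 0.00696), under the 2-fold limit, and 1.503 and called with a pseudocount of 0.1.

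MEIS1, a homeobox cofactor of HOX proteins in blood stem cells, was the regulator called at each of the 3 steps. It measured 0.218, 0.134 and 0.174 FPKM in H1 hESCs, 3.18, 3.72 and 2.52 in APLNR+ cells, 14.7, 19.5 and 17.2 in HEPs and 41.1, 61.1 and 52.3 in HPCs. No libraries of neighbouring stages overlapped. The log2 changes were 1.81 ± 0.15, 2.13 ± 0.15 and 1.53 ± 0.15, with limma adjusted p of 9.79e-07, 1.44e-07 and 5.17e-06. From H1 hESCs to HPCs the change came to 5.46 on the log2 scale.

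The other MEIS genes took different courses, so the leading member of the family changed. MEIS3 was the highest in H1 hESCs, APLNR+ cells and HEPs, with means of 4.39 ± 0.849, 24.8 ± 2.96 and 61.0 ± 4.56 FPKM (SD, n = 3), and then fell to 5.29 ± 0.758 in HPCs, by 3.31 on the log2 scale (limma adjusted p = 2.48e-09). In HPCs MEIS1 was highest, at 51.5 ± 10.02 FPKM, and MEIS2 stood at 13.0 ± 3.47 FPKM after a rise of 2.05 ± 0.22 into HEPs. Of the 11 genes listed beside MEIS1, which are PBX, PKNOX and HOX genes, 6 were tested. At the 3 steps 1, 1 and 0 of them were raised and 1, 1 and 0 lowered, with 2 higher and 2 lower at the last step at an unadjusted limma p under 0.05, and with medians of 0.32, -0.03 and -0.04. The shares over all genes tested were 8.3%, 12.5% and 5.58% raised and 7.62%, 17.1% and 8.79% lowered. PKNOX2 rose at the first step from 0.395 to 3.41 (1.67 ± 0.12) and fell back to 0.493 in HEPs (-1.57 ± 0.12). HOXB4, which supports the self-renewal of blood stem cells, rose into HEPs from 0.210 to 3.16 FPKM (1.77 ± 0.10). The HOXA genes that partner MEIS1 in definitive blood stem cells were barely listed: HOXA5, HOXA7, HOXA9 and HOXA10 were at 0 in every H1 library, HOXA7 reached at most 0.393 and HOXA9 at most 0.190 FPKM in an HPC library, and none of the 4 was tested.

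**Figure D3:**
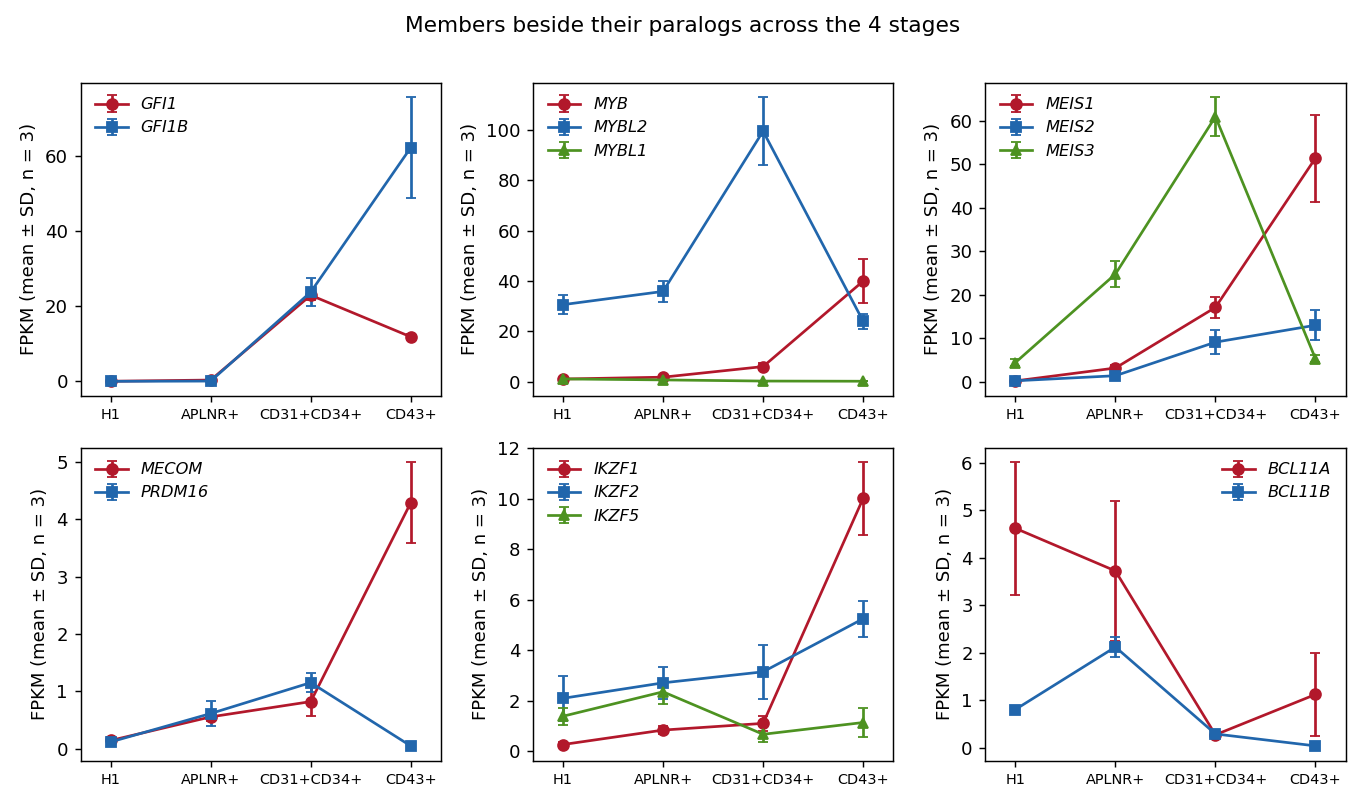
Mean FPKM ± SD (y axis, n = 3) of regulators and their paralogs in the 4 stages (x axis). In HPCs GFI1B was above GFI1, MYB above MYBL2 and MEIS1 above MEIS3, whereas in HEPs MYBL2 was above MYB and MEIS3 above MEIS1.

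MYB, needed for definitive blood progenitors, rose in HEPs and much further in HPCs. Its FPKM was 0.854, 1.48 and 0.886 in H1 hESCs, 1.60, 1.88 and 1.93 in APLNR+ cells, 4.62, 7.04 and 6.39 in HEPs and 30.0, 44.3 and 45.7 in HPCs. Neighbouring stages did not overlap, although the first step, 0.45 ± 0.18, had a limma adjusted p of 0.0538. The rise was 1.31 ± 0.18 into HEPs (limma adjusted p = 3.86e-05) and 2.54 ± 0.18 into HPCs (limma adjusted p = 2.47e-07). Its paralog MYBL2 (B-Myb), a factor of dividing cells, was high from the start, rose from 35.9 to 99.6 FPKM into HEPs (1.44 ± 0.14) and fell to 24.1 FPKM in HPCs (-2.00 ± 0.14). MYB was thus below MYBL2 in mean FPKM in H1 hESCs, APLNR+ cells and HEPs, and above it in HPCs, at 40.0 ± 8.70 FPKM.

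IKZF1 and MECOM were called at the last step alone of the 3. IKZF1, the Ikaros factor of lymphoid and other blood lineages, measured 0.176, 0.342 and 0.264 FPKM in H1 hESCs, 0.997, 0.737 and 0.767 in APLNR+ cells, 0.863, 1.42 and 1.01 in HEPs and 8.48, 11.3 and 10.2 in HPCs. The first step, 0.54 ± 0.13 (limma adjusted p = 0.00306), was under the 2-fold limit, but it was 1.39 and called with a pseudocount of 0.1. APLNR+ and HEP libraries overlapped, with a change of 0.19, a 95% interval of -0.09 to 0.47 and a limma adjusted p of 0.195. Every HPC library was far above all others, and the rise of 2.39 ± 0.13 had a limma adjusted p of 1.80e-08. Its paralog IKZF2 (Helios) stood at 3.14 ± 1.08 FPKM in HEPs and 5.24 ± 0.711 in HPCs (SD, n = 3), a change of 0.62 ± 0.22 that was not called (limma adjusted p = 0.0344, under 2-fold).

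MECOM, the EVI1 locus, which keeps blood stem cells quiescent, measured 0.158, 0.0734 and 0.199 FPKM in H1 hESCs, 0.565, 0.623 and 0.477 in APLNR+ cells, 0.549, 0.854 and 1.06 in HEPs and 4.42, 3.53 and 4.93 in HPCs. HPCs were again apart from all other libraries, and APLNR+ cells and HEPs overlapped (0.22, 95% interval -0.05 to 0.49, limma adjusted p = 0.128). The first step, 0.44 ± 0.12 (limma adjusted p = 0.00871), was likewise under the limit, and 1.46 and called with a pseudocount of 0.1. The rise into HPCs was 1.54 ± 0.12 (limma adjusted p = 6.75e-07). Even there MECOM was low, at a mean FPKM above that of 44.3% of the genes tested. An antisense gene over MECOM, AC074033.1, averaged 2.51, 1.76, 0.659 and 1.34 FPKM from H1 hESCs to HPCs, so it was listed above MECOM in the first stages, and reads of the pair cannot be told apart without strand. The paralog of MECOM, PRDM16, also a blood stem cell factor, went the other way at that step, from 1.15 to 0.0475 FPKM (-1.04 ± 0.10, limma adjusted p = 3.75e-06).

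Of the 13 listed paralogs of the regulators, 11 were tested. At the 3 steps 1, 3 and 0 were raised and 0, 3 and 3 lowered, with 2 higher and 5 lower at the last step at an unadjusted limma p under 0.05, and with medians of 0.49, 0.42 and -0.13 on the log2 scale. Over all genes tested, 8.3%, 12.5% and 5.58% were raised and 7.62%, 17.1% and 8.79% lowered. The first rise was that of MEIS3 (2.26 ± 0.14), and the 3 falls into HPCs were those of MEIS3, MYBL2 and PRDM16. At the second step NFIL3, a relative of HLF, fell from 6.05 to 1.93 FPKM (-1.27 ± 0.10).

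BCL11A was the regulator that fell. Its FPKM was 3.98, 6.23 and 3.66 in H1 hESCs, 2.61, 5.40 and 3.17 in APLNR+ cells, 0.197, 0.331 and 0.281 in HEPs and 0.616, 0.622 and 2.12 in HPCs. The first pair of stages overlapped (-0.27, 95% interval -0.86 to 0.33), and HEPs were below every other library. The fall into HEPs was -1.85 ± 0.27 (limma adjusted p = 6.05e-05). HPCs lay above HEPs without overlap, but the difference of 0.67 ± 0.27 was not called (limma adjusted p = 0.0560), and it rests in part on replicate 3, without which it was 0.35 with a limma adjusted p of 0.241. Its paralog BCL11B, a T cell factor, fell at the same step as BCL11A, from 2.12 to 0.287 FPKM (-1.28 ± 0.08, limma adjusted p = 2.99e-08).

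BCL11A and IKZF1 act with the NuRD chromatin complex, and all 14 of its listed genes were tested. At the 3 steps 1, 0 and 0 were raised and 1, 2 and 0 lowered, with medians of -0.12, 0.16 and -0.06 on the log2 scale. Of all genes tested, 8.3%, 12.5% and 5.58% were raised and 7.62%, 17.1% and 8.79% lowered. At an unadjusted limma p under 0.05, 4 were higher and 5 lower at the first step, 5 higher and 6 lower at the second, and 2 higher and 3 lower at the last. The called genes were the helicase CHD3, which rose from 2.43 to 8.13 FPKM at the first step (1.41 ± 0.10), the histone-binding protein gene RBBP7, which fell there from 54.3 to 25.6 (-1.06 ± 0.08), HDAC2 as given before, and CDK2AP1, which fell from 48.4 to 19.9 FPKM into HEPs (-1.24 ± 0.13). Most listed genes of both chromatin complexes were called at no consecutive step, although many changed by less than 2-fold. With lists this short, that cannot be told from the shares over all genes tested.

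HLF, a leucine zipper factor of human blood stem cells, was not detected above 0.5 FPKM in any library and was left out of the tests. It was listed at 0.426, 0.158 and 0.144 FPKM in H1 hESCs, 0, 0.00365 and 0.0247 in APLNR+ cells, 0.228, 0.0132 and 0.0594 in HEPs and 0.00285, 0.132 and 0.0556 in HPCs. The highest value was thus that of an H1 library, H1 and HEP libraries overlapped, and the 3 later stages overlapped each other. With no filter on low values, HPCs differed from H1 hESCs by -0.22 on the log2 scale (limma adjusted p = 0.192) and APLNR+ cells by -0.29 (limma adjusted p = 0.0892). The number of fragments behind such low values is unknown, because FPKM carries no read totals.

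Of 18 further genes listed for blood stem cells, 13 were tested, and they did not move one way. At the 3 steps 3, 5 and 2 were raised and 2, 2 and 5 lowered, with medians of -0.04, 0.47 and -0.30 on the log2 scale. Beside them, 8.3%, 12.5% and 5.58% of all genes tested were raised and 7.62%, 17.1% and 8.79% lowered. More of the listed genes were thus lowered than raised at the last step. At the first step MYCT1 rose from 0.0800 to 6.85 FPKM (2.85 ± 0.14) and CRHBP from 0.0493 to 3.34 (2.04 ± 0.13), while THY1 (CD90), a surface mark of stem cells that hESCs also carry, fell from 137 to 22.0 (-2.61 ± 0.33) and the receptor gene KIT from 5.59 to 2.06 (-1.12 ± 0.18). Into HEPs, HOPX rose to 37.8 FPKM (4.69 ± 0.12) and CRHBP to 42.0 (3.31 ± 0.13), and PROM1 (CD133) fell from 14.9 to 4.33 (-1.58 ± 0.15) and LIN28B, an RNA-binding protein of fetal blood progenitors, from 42.1 to 16.0 (-1.35 ± 0.17). Into HPCs, SPINK2 rose to 2.37 FPKM (1.10 ± 0.13) and MYCT1 to 15.4 (1.08 ± 0.14), whereas PROCR (EPCR), a surface mark of stem cells and of endothelium, fell from 74.7 to 18.9 (-1.93 ± 0.10) and CRHBP to 13.4 (-1.58 ± 0.13). In HPCs the stem cell list therefore held genes that rose beside MECOM and MEIS1 and others that fell.

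Over the whole course, 7 of the 9 regulators were raised in HPCs against H1 hESCs, beside 14.6% of all genes tested, and 1, BCL11A, was lowered (-1.45 on the log2 scale), beside 22.5%. HEPs against H1 hESCs gave 5 raised, beside 16.9%, and 1 lowered, beside 23.2%. HPCs against APLNR+ cells gave 7 raised, beside 14.1%, and 1 lowered, beside 19.4%. The groups did not overlap for 76.3% of all genes in HPCs against H1 hESCs, 79% in HEPs against H1 hESCs and 75.4% in HPCs against APLNR+ cells. These comparisons share libraries with each other and with the consecutive steps. The fall of BCL11A from APLNR+ cells to HPCs (-1.19, limma adjusted p = 0.00177) lay close to the 2-fold limit: it was -0.94 without APLNR+ replicate 2 and then no longer called.

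Read by rank among the 14840 genes tested, the regulators changed places. In HEPs GFI1B exceeded 81.4% of the genes tested by mean FPKM, GFI1 80.7%, HHEX 77.4% and MEIS1 75.4%, while MYB exceeded 51.8% and IKZF1, MECOM and BCL11A 17.5% or less. In HPCs GFI1B exceeded 93.1%, MEIS1 91.5% and MYB 89.1%, ahead of HHEX at 76.9%, GFI1 at 68.6%, IKZF1 at 64.7%, MECOM at 44.3% and BCL11A at 18.5%. In H1 hESCs BCL11A led with 42.4%, and MYB was next with 14.4%.

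The genes whose course over the 12 libraries was most like that of each regulator were found by Pearson correlation of log2(FPKM + 1) among 7670 genes (7671 for GFI1B, MECOM and BCL11A) that reached a stage mean of 10 FPKM. The 12 points fall into 4 stages that all genes share, so many genes reach high values, and the correlations are descriptions. For GFI1 the closest were HLA-E (r = 0.998), FAM69B (0.997) and HOPX (0.997), and for HHEX they were the vessel gene VWF (0.996), ARHGEF2 (0.994) and the ETS factor gene FLI1 (0.994). GFI1B was closest to LAPTM5 (0.998), INPP1 (0.998) and GIMAP5 (0.998). MYB was closest to ARHGEF6 (0.997), TMEM163 (0.997) and NSMAF (0.995), and MEIS1 to FOSB (0.998), QPRT (0.994) and FAM53B (0.994). IKZF1 was closest to STXBP5 (0.994), CD226 (0.990) and RAB37 (0.987), and MECOM to CD226 (0.987), IKZF1 itself (0.980) and TIMP3 (0.979). BCL11A had the least close neighbours, WEE1 (0.973), SUV39H2 (0.969) and EIF2A (0.969). Within the group, the closest pairs were GFI1 and HHEX (r = 0.982), IKZF1 and MECOM (0.980), GFI1B and HHEX (0.973), IKZF1 and MYB (0.970), and MECOM and MYB (0.967). The paralogs GFI1 and GFI1B had r = 0.940, and the lowest pair was BCL11A and GFI1 at -0.932.

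Among 16 other listed transcription factors of early blood, 15 were tested, and most of them were raised at the second step. At the 3 steps 2, 10 and 5 were raised and 0, 0 and 1 lowered, with 7, 14 and 10 higher and 2, 1 and 4 lower at an unadjusted limma p under 0.05, and with medians of 0.21, 2.10 and 0.69 on the log2 scale. Among all genes tested, 8.3%, 12.5% and 5.58% were raised and 7.62%, 17.1% and 8.79% lowered. GATA2 (2.42 ± 0.12) and RUNX1 (1.38 ± 0.10) were called as raised in APLNR+ cells, where GFI1B was at or near 0 and GFI1 under 1 FPKM. RUNX1 averaged 1.95 FPKM there. With a pseudocount of 0.1, GFI1 was called at that step too (1.55), so an order of these genes depends on the pseudocount. TAL1 (6.34 ± 0.12) and FLI1 (6.23 ± 0.14) rose most into HEPs, the step of GFI1, GFI1B and HHEX. Into HPCs GATA1, the red cell and megakaryocyte factor, rose from 1.83 to 56.0 FPKM (4.34 ± 0.13) and NFE2 from 6.17 to 105 (3.88 ± 0.14), and the endothelial and stem cell factor ERG fell from 31.5 to 10.9 (-1.47 ± 0.16).

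Marker genes of the cell types that the sorted populations could hold also changed between the stages, not always in the direction of the regulators. The counts of marker lists here and below stand beside shares over all genes tested. At the 3 steps these were 8.3%, 12.5% and 5.58% raised and 7.62%, 17.1% and 8.79% lowered. Of 26 listed endothelial genes, 24 were tested, and 3, 20 and 2 were raised and 1, 1 and 13 lowered at the 3 steps, with medians of -0.01, 3.55 and -1.19 on the log2 scale. Their summed FPKM was 93.9 to 98.8 in H1 hESCs, 123 to 140 in APLNR+ cells, 2025 to 2270 in HEPs and 784 to 957 in HPCs, so it stood high at the stage where GFI1, GFI1B and HHEX rose and remained above the early stages in HPCs. Of the erythroid genes 12 were tested, with 2, 3 and 11 raised and 1, 1 and 0 lowered and a median of 3.49 at the last step, where 1 was lower at an unadjusted limma p under 0.05. Their sum was 32.5 to 37.7 FPKM in HEPs and 1879 to 2339 in HPCs. Of the megakaryocyte genes 10 were tested, with 0, 3 and 9 raised and 2, 0 and 0 lowered, a median of 2.22 at the last step, and 1 higher at the first step and 0 lower at the later ones at an unadjusted limma p under 0.05. Their sum was 13.7 to 19.8 FPKM in HEPs and 735 to 796 in HPCs, the step at which GFI1B, MYB, IKZF1, MECOM and MEIS1 rose. The part of these markers in the changes of the regulators was not tested.

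Markers of other lineages were summed in the same way. The myeloid sum was 4.91 to 5.93 FPKM in HEPs and 51.4 to 58.1 in HPCs, with ELANE listed at 0 there, and of the 6 myeloid genes tested 1, 1 and 6 were raised at the 3 steps (median 2.46 at the last). The lymphoid sum was 32.0 to 37.2 FPKM in HEPs and 22.9 to 25.1 in HPCs. In HEPs it was nearly all CD79B, at a mean of 32.4 FPKM, and CD7 rose into HPCs from 0.173 to 3.62 FPKM (1.98 ± 0.08), while MS4A1 and DNTT, genes of B and early lymphoid cells, were listed at 0 in HPCs, where IKZF1 was highest. Of the 3 lymphoid genes tested 0, 2 and 1 were raised, with 0 higher at the first step at an unadjusted limma p under 0.05 and medians of -0.20, 1.12 and 0.45. The pluripotency sum was 2493 to 2603 FPKM in H1 hESCs, 856 to 938 in APLNR+ cells, 373 to 459 in HEPs and 178 to 207 in HPCs. Of its 8 genes 7, 3 and 4 were lowered at the 3 steps, with medians of -1.88, -0.79 and -1.01, and BCL11A fell at the second of these steps.

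**Figure D4:**
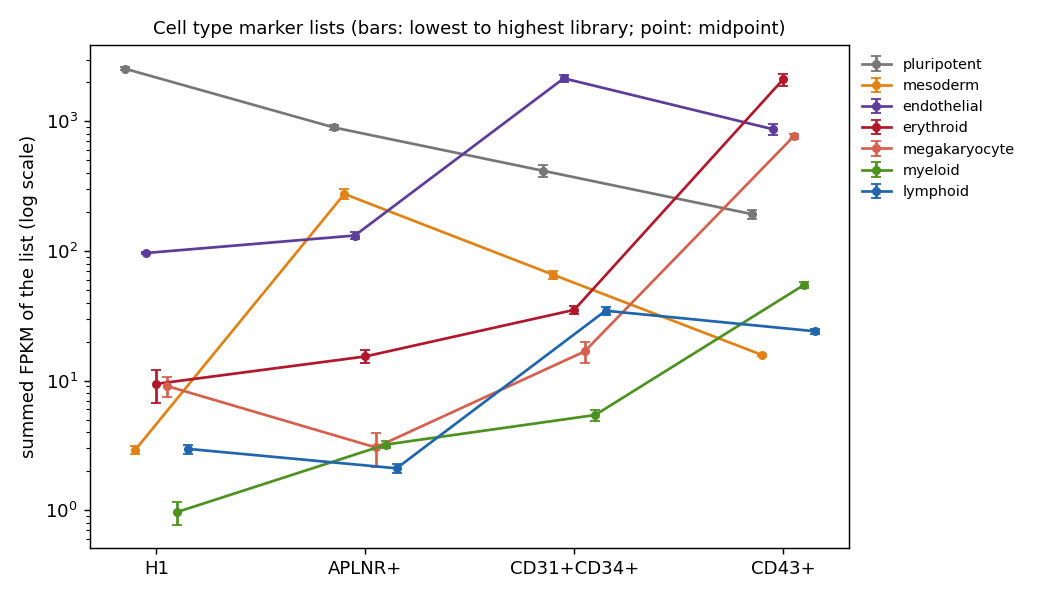
Summed FPKM of 7 lists of cell type markers (y axis, log scale) in the 4 stages (x axis). Bars run from the lowest to the highest library and points are midpoints. The endothelial sum was highest in HEPs, at 2025 to 2270, and the erythroid and megakaryocyte sums were highest in HPCs, at 1879 to 2339 and 735 to 796.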

How the data were processed

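RNA-seq was carried out on 12 libraries: 3 each of H1 hESCs and of sorted APLNR+ cells from day 2, CD31+CD34+ cells from day 5 and CD43+ cells from day 8, grouped by sample title. The authors deposited a table of FPKM values, whose making is described only by the names BWA, Bowtie, RSEM and hg19 in the submitters' processing notes. The annotation, the use of strand and any scaling between libraries are not given in the sources used here. A closing line of text (1 line) was left out. Of 56593 symbols, 345 stood on more than 1 line (2117 lines), and of these lines that of the highest mean FPKM was used. FPKM carries no read totals, so the depth is unknown, no count model was run, and the 3 libraries per stage limit the precision.

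Values were taken as log2(FPKM + 1), and genes that reached 1 FPKM in 3 libraries were kept (14840). Fold changes are on this scale, which understates the change of low genes. limma 3.58.1 in R 4.3.3 (eBayes with trend) was fitted to all 4 stages without covariates, with Benjamini-Hochberg adjustment over all genes of each of 6 comparisons, and all adjusted p values come from it. Calls needed an adjusted p under 0.05 and 2-fold. Sums, promoters and figures were made with Python 3.11.15, pandas 2.3.3 and matplotlib 3.10.9. On simulated data for HPCs against HEPs with 14840 genes, 196 of 200 changed genes were recovered and 0 unchanged genes were called. The changed genes were drawn from the better expressed ones in HEPs and given log2 changes of 1.5 to 4, with noise independent between libraries. The simulation thus did not cover changes near 2-fold, deviations shared between libraries, or genes as low in HEPs as IKZF1, MECOM and BCL11A. Alternatives changed the pseudocount, filter, scaling, variance model, minimum change, pairing and libraries.

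The members and gene lists were chosen with earlier results of these data known. Named are all members, the 3 genes closest to each in course, the sorting markers and, for the chromatin, paralog, partner, stem cell and blood factor lists, the 2 largest called rises and falls at each step. The cell type lists are given by counts and sums, and some genes of the lists are not reported here by name. The ratio within libraries, PRDM16, IKZF2, KDM1A, HDAC1 and the HOXA genes were picked after their values were seen. Promoters came from RefSeq (GRCh38.p14) and matched all 9 symbols.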

Additional observations from a re-analysis of the deposited data

How the results depend on the processing

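Of 576 values of single regulators with 1 library left out, 575 kept their direction and their side of the threshold or stayed uncalled, and of 500 values under the other settings 492 did. Part of this agreement was fixed in advance. Each comparison was refitted without each of the 12 libraries, and leaving out a library of neither compared group cannot move the log2 change. The settings of filter, variance model and replicate block also leave the log2 change as it is. With a pseudocount of 0.1, 5 regulators were raised from H1 hESCs to APLNR+ cells in place of 1, with GFI1 (1.55), IKZF1 (1.39), MECOM (1.46) and HHEX (1.503) joining MEIS1. IKZF1 (1.73) and MECOM (1.92) were then raised in HEPs against H1 hESCs too, and BCL11A (1.52) in HPCs against HEPs. With no minimum change, 5 were raised at the first step, and 1, GFI1, was lowered from HEPs to HPCs, as with a minimum of 1.5-fold (1). A filter at a mean of 5 FPKM leaves out the low genes, so that 0 were lowered in HEPs against APLNR+ cells, in HEPs or HPCs against H1 hESCs and in HPCs against APLNR+ cells, and 3 were raised from HEPs to HPCs. BCL11A was not called in HPCs against APLNR+ cells after quantile normalization (-0.99, 0 lowered), nor without APLNR+ replicate 2 (0 to 1 lowered over the libraries left out), and the cause was not tested.

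Median-ratio size factors moved the median of all genes from -0.01 to -0.24 from APLNR+ cells to HEPs, where 1200 genes were then raised and 3490 lowered in place of 1861 and 2539 (25.6% raised in place of 42.3%). From H1 hESCs to APLNR+ cells the share raised went from 52.1% to 64.5%, and from APLNR+ cells to HPCs from 42.1% to 28.9%. No count of regulators changed, and MYB was still raised into HEPs (1.08).

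The replicate numbers are not stated to mark a shared culture. Deviations from the stage means of same-numbered libraries correlated at -0.0214 to 0.429 over 18 pairs (median 0.201), against -0.404 to 0.289 over 36 pairs of other numbers (median -0.152), and at 0.196 to 0.429 among the libraries numbered 1. Not every same-numbered pair was above 0.1, so the numbers were not taken as a pairing, although those of number 1 deviated together. With the replicate block, raised regulators numbered 1, 5 and 5 and lowered ones 0, 1 and 0 at the 3 steps, as without it, and BCL11A from HEPs to HPCs had a limma adjusted p of 0.0430 (0.67, under 2-fold). Low values such as those of HLF, MECOM and IKZF1 are limited by a depth that the table does not give.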

Other observations

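Further lists of marker genes were counted and summed in the same way, which does not show the cells they came from. Of 11 mesoderm genes tested, 11, 0 and 0 were raised and 0, 8 and 5 lowered at the 3 steps, with medians of 3.95, -1.40 and -0.91 on the log2 scale and 0 higher at the later steps at an unadjusted limma p under 0.05. Their summed FPKM was 252 to 299 in APLNR+ cells, 60.4 to 70.6 in HEPs and 15.4 to 16.0 in HPCs. Of 10 endoderm genes tested, 5, 2 and 2 were raised and 1, 2 and 6 lowered (medians 1.15, 0.23 and -1.06), and their sum reached 2222 to 2353 FPKM in APLNR+ cells against 17.1 to 17.8 in H1 hESCs. Nearly all of that sum was CER1, which is also made by early mesendoderm, at a mean of 2238 FPKM. Of 4 neural genes tested, 1, 1 and 0 were raised and 1, 1 and 3 lowered (medians -0.08, 0.05 and -2.31), and their sum was 149.8 to 169.6 FPKM in HEPs and 21.9 to 27.3 in HPCs. Of 3 mast cell and eosinophil genes tested, 0, 0 and 2 were raised and 1, 0 and 0 lowered, with a median of 2.79 at the last step and 0 higher and 0 lower from APLNR+ cells to HEPs at an unadjusted limma p under 0.05.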
